A study of Mus musculus with 8 samples.

Results

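Id2, T-bet (Tbx21), Zeb2 and 6 related regulators of effector CD8 T cells were followed across 8 RNA-seq libraries of T cells sorted from mouse liver. The members were taken by gene symbol (Id2, Tbx21, Zeb2, Zeb1, Eomes, Prdm1, Runx3, Bhlhe40 and Zfp683), and they were chosen by a rule set with the CD11c+ and CD11c- levels of these same libraries already known, so their differences below are a description and carry no test. Of the 9 symbols, 8 matched among 22609 genes, and all 8 were among the 10073 genes with enough reads to be tested. Zfp683, which encodes Hobit, was not analysed here.

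The cells came from male C57BL/6J mice aged 6 weeks, all given αCD137, an antibody that stimulates through a costimulatory receptor of T cells, on days 0, 3 and 6. Livers were taken on day 8. The gate took live cells positive for CD45, TCRβ, CD8α and KLRG1 and negative for MHCII, NK1.1, CD4 and CD127, which is how short-lived effector cells look at the surface. Within it CD11c+ and CD11c- cells were sorted apart, and each group has 4 libraries. No library from untreated mice and no CD8 T cells from outside this gate were compared, so both groups share the antibody and the effector phenotype. The labels number the libraries 1 to 4 in each group and do not say whether these were separate mice, so the spread given here may in part be technical.

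Depth was 5090345 to 7093163 gene reads per library, with 10482 to 12581 genes detected. Levels are given as CPM, reads per 1000000 gene reads after TMM scaling. Itgax, which encodes CD11c, ranged from 198 to 357 CPM among CD11c+ libraries and from 4.76 to 17.97 among CD11c- libraries, so the transcript followed the sort labels in all 8. The 8 T cell markers (Cd3d, Cd3e, Cd3g, Cd247, Cd8a, Cd8b1, Lck and Zap70) summed to 8441 to 9694 CPM in CD11c+ and 8769 to 9776 in CD11c- libraries. In bulk RNA, more cells that express a gene and more RNA of it per cell cannot be told apart, and this holds for every difference below.

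These factors act together when a CD8 T cell becomes an effector. Id2 has no DNA-binding domain and works by pairing with E proteins (products of Tcf3, Tcf4 and Tcf12), which keeps them off their E-box sites, while its relative Id3 is linked to memory precursors. T-bet, induced by antigen and inflammatory cytokines, drives the effector programme and cooperates with Zeb2, a zinc finger repressor that also binds E-box sites. Zeb1 is the paralog of Zeb2 and is tied to memory cells. Eomes is the T-box relative of T-bet, Prdm1 encodes the repressor Blimp-1, Runx3 keeps cells in the CD8 lineage and supports cytotoxic and tissue-resident programmes, and Bhlhe40 is a basic helix-loop-helix repressor induced on activation.

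Because Id2, E proteins and Zeb factors are joined by the E-box, the 250 bases before the annotated start are shown for the 3 members that stood apart between the groups and for Eomes, the paralog of Tbx21. Sequences are from RefSeq on build GRCm38.p6, where 6 of the 9 members had an entry that was used. Each is written 5′ to 3′ on the strand of the gene, with every E-box (CANNTG, which reads the same on both strands) in capitals. Zeb2 has 4 annotated starts, of which the most upstream is shown.
Id2, chr12:25096093-25096342, minus strand: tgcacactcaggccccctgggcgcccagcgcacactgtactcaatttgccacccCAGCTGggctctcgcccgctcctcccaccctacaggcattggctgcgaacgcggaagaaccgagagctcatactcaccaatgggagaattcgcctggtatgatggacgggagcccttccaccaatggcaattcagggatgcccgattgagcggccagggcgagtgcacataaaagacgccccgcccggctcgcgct
Tbx21, chr11:97115332-97115581, minus strand: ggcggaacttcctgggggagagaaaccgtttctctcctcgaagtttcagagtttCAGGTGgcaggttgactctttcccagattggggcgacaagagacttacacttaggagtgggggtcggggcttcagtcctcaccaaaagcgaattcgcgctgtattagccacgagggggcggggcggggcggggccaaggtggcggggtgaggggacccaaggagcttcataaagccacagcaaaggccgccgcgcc
Zeb2, chr2:45117443-45117692, minus strand: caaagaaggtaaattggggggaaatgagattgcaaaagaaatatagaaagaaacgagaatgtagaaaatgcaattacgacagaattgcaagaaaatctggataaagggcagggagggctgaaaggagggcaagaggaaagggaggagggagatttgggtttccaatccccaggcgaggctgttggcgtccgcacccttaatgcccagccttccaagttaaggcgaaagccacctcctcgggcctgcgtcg
Eomes, chr9:118477939-118478188, plus strand: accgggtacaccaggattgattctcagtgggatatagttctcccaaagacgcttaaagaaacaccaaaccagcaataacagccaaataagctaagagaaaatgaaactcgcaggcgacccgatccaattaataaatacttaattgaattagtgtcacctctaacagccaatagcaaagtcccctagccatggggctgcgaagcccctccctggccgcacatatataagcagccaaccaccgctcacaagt

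Id2 and Tbx21 each had 1 E-box in this window, and both lay 196 bases before the start. In Id2 it read CAGCTG. In Tbx21 it read CAGGTG, which on the other strand is CACCTG, the form of the E-box that Zeb factors bind, and which is thus counted under both motifs. The windows of Zeb2 (all 4 starts) and Eomes held none, that of Prdm1 held 2 and that of the first Runx3 start 1. CAGGTG was not particular to Tbx21. It also lay 87 bases before the Prdm1 start and 233 bases before the first Runx3 start, in members that overlapped between the groups. An E-box occurred in 66.2% of 32851 mouse promoter windows of the same length, and CACCTG on either strand in 17.2%. Neither the T-box motif AGGTGTG (5.1% of windows, either strand) nor the class B E-box CACGTG (6.02%), the form known for Bhlhe40, was found in any member window. These matches are letters in a window and not measured binding.

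Id2, Tbx21 and Zeb2 were higher in every CD11c+ library than in any CD11c- library, and the other 5 members overlapped between the groups. Over all tested genes, all 4 CD11c+ libraries lay above all 4 CD11c- libraries in 1.6% and below in 1.85%. In the fit over all genes by edgeR, 1 of the 8 members (Id2) passed an adjusted p of 0.05 as higher and 0 as lower, while 0.0298% of all genes passed as higher and 0.0496% in either direction. DESeq2 called 3 members (Id2, Tbx21 and Zeb2; 0.196% of its genes were higher) and limma voom with quality weights 2 (Id2 and Tbx21; 0.139%). Since the members were picked with this contrast known, nothing is read from these shares.

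**Figure D1:**
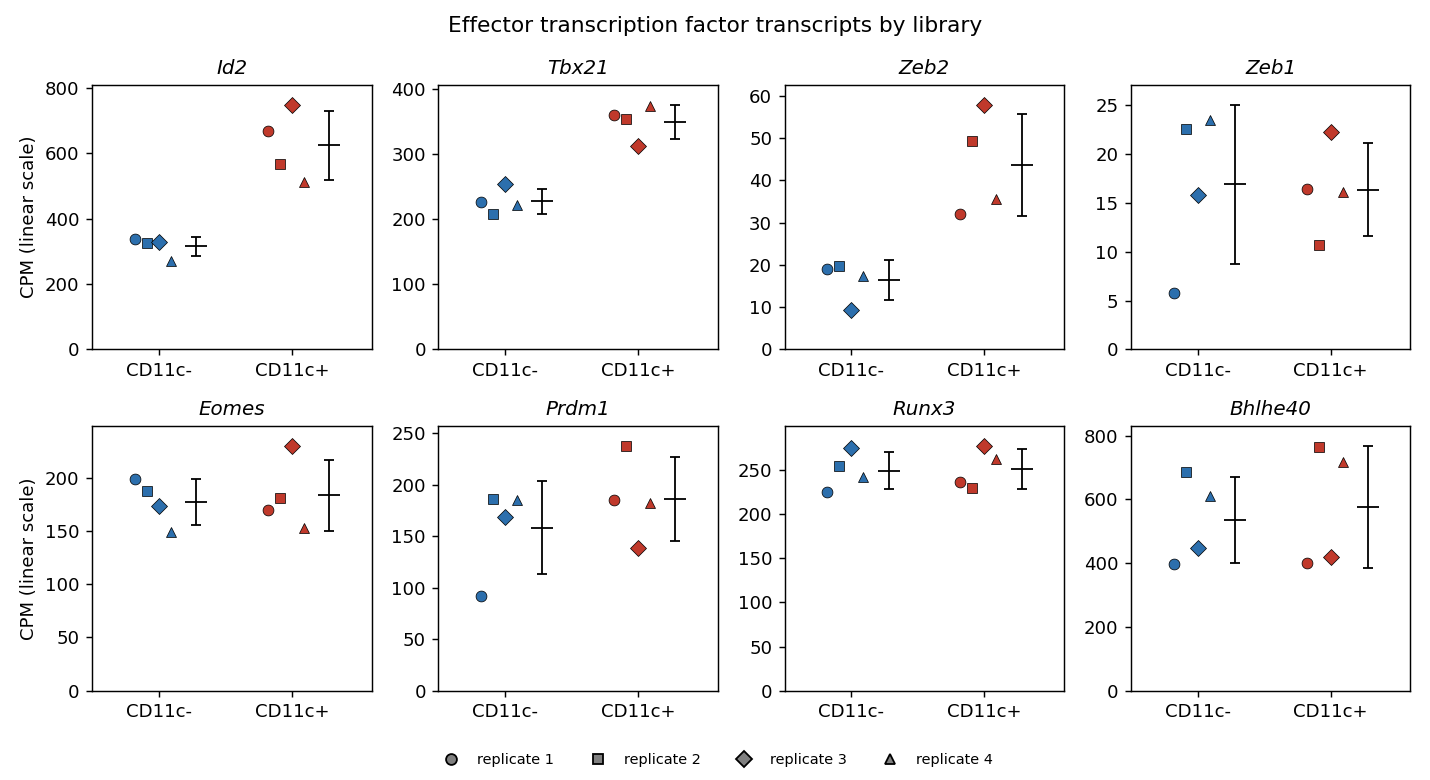
CPM of the 8 members by library, on linear axes that start at 0, with CD11c- libraries in blue and CD11c+ libraries in red; marker shapes give the replicate number and black bars the mean ± SD (n = 4). Id2, Tbx21 and Zeb2 separate the groups with no overlap, while Zeb1, Eomes, Prdm1, Runx3 and Bhlhe40 overlap.

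Id2, the inhibitor of E proteins, was at 669, 568, 750 and 511 CPM in CD11c+ replicates 1 to 4 and at 337, 324, 327 and 272 CPM in CD11c- replicates 1 to 4. The CD11c- libraries were close to each other, and the lowest CD11c+ library was 1.52 times the highest CD11c- library. Mean levels were 625 CPM ± 106 and 315 ± 29.6 (SD, n = 4 each), a log2 fold change of 0.99 (SE 0.13) or 1.98-fold. At 1541 to 4209 reads per library, the coefficient of variation between CD11c+ libraries was 16.98%, against 1.69% from read counting alone, so depth did not limit this value. By edgeR Id2 kept its call in 2 of the 8 fits that left out 1 library (CD11c+ replicate 2 or 4) and lost it without CD11c+ replicate 1 or 3 or any one CD11c- library, with log2 fold changes of 0.88 to 1.06 throughout.

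Tbx21, which encodes T-bet, was at 360, 353, 312 and 373 CPM in CD11c+ replicates 1 to 4 and at 226, 207, 253 and 222 CPM in the CD11c- replicates. Replicate 3 was the lowest of the CD11c+ libraries and the highest of the CD11c- libraries, and the gap between these was 1.23-fold. The means were 349 CPM ± 26.3 and 227 ± 19.0, a log2 fold change of 0.62 (SE 0.11) or 1.54-fold. Tbx21 was the steadiest of the 3 separated members within a group, with coefficients of variation of 7.52% and 8.38%.

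Zeb2, the zinc finger repressor downstream of T-bet, was at 32.1, 49.2, 57.9 and 35.5 CPM in CD11c+ replicates 1 to 4 and at 18.9, 19.7, 9.41 and 17.3 CPM in the CD11c- replicates. It had the widest gap of the 3, 1.62-fold between the nearest libraries, and the widest spread within groups. The means were 43.7 CPM ± 12.0 and 16.3 ± 4.74, a log2 fold change of 1.42 (SE 0.30) or 2.67-fold. With 50 to 325 reads per library, counting alone gave a coefficient of variation of 6.54% in CD11c+ and 10.9% in CD11c- libraries, against 27.5% and 29.0% measured. GENCODE M21 places exons of the antisense gene Zeb2os over 6 Zeb2 exons, and with a strand setting not given in the sources used here, reads of the 2 genes cannot be told apart. Mir5129 lies in 1 Zeb2 exon on the same strand.

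Zeb1, the paralog tied to memory cells, was at 16.4, 10.7, 22.3 and 16.1 CPM in CD11c+ replicates 1 to 4 and at 5.76, 22.6, 15.8 and 23.4 CPM in the CD11c- replicates. The groups overlapped, around means of 16.4 ± 4.75 and 16.9 ± 8.17, with a log2 fold change of -0.05 (SE 0.42). This is the least precise member, from 31 to 161 reads per library, and its log2 fold change was -0.34 without CD11c- replicate 1 and 0.14 without CD11c- replicate 4.

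Eomes, the T-box relative of T-bet, was at 170, 180, 230 and 153 CPM in CD11c+ replicates 1 to 4 and at 198, 187, 173 and 149 CPM in the CD11c- replicates. The 2 groups covered nearly the same range, with CD11c+ replicate 3 alone above all CD11c- libraries. Means were 183 CPM ± 33.1 and 177 ± 21.5, with a log2 fold change of 0.05 (SE 0.15) and of -0.08 without CD11c+ replicate 3. An exon of Gm33460 lies over 1 Eomes exon on the opposite strand, so the same limit on strand holds for Eomes and for ratios to it.

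Prdm1, which encodes Blimp-1, was at 185, 238, 138 and 183 CPM in CD11c+ replicates 1 to 4 and at 92.1, 187, 169 and 186 CPM in the CD11c- replicates. CD11c- replicate 1 was the low library, and the other 7 lay between 138 and 238. The means were 186 CPM ± 40.7 and 158 ± 44.9, a log2 fold change of 0.23 (SE 0.22), which became 0.03 without CD11c- replicate 1 and -0.18 when the 3 libraries in which fewest genes were detected (CD11c+ replicates 1 and 2 and CD11c- replicate 1) were left out.

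Runx3, the CD8 lineage factor, was at 236, 229, 278 and 263 CPM in CD11c+ replicates 1 to 4 and at 225, 255, 275 and 242 CPM in the CD11c- replicates. Both groups covered the same range, with means of 252 CPM ± 22.6 and 249 ± 21.0 and a log2 fold change of 0.01 (SE 0.12). It had the smallest difference of the 8 members.

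Bhlhe40, the activation-induced repressor, was at 400, 765, 420 and 717 CPM in CD11c+ replicates 1 to 4 and at 396, 685, 448 and 612 CPM in the CD11c- replicates. In both groups replicates 2 and 4 were high and replicates 1 and 3 low, and the step from 448 to 612 CPM between these sets of libraries was wider than the difference between the groups at any one number. Means were 576 CPM ± 192 and 535 ± 136, with a log2 fold change of 0.11 (SE 0.23). Exons of 0610040F04Rik on the opposite strand overlap 2 Bhlhe40 exons. That gene has counts of its own, so reads on both could have been left out as ambiguous and not counted for Bhlhe40.

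**Figure D2:**
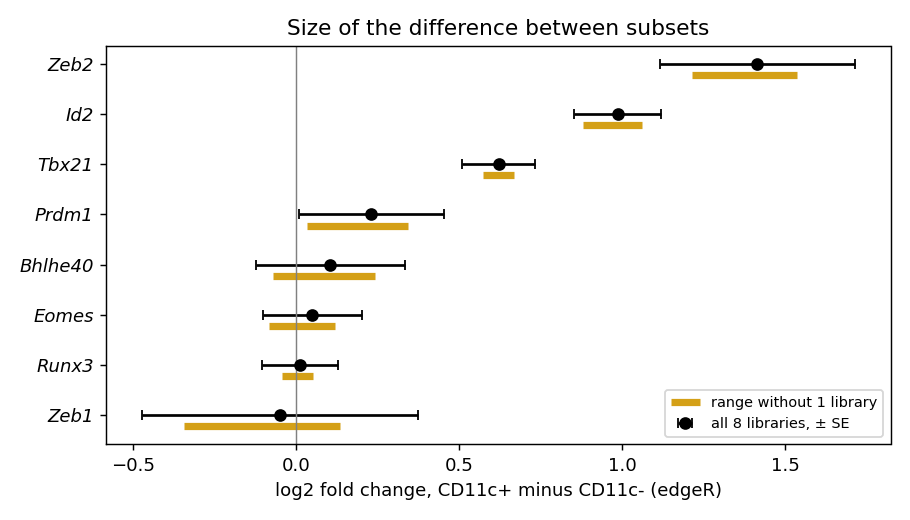
Log2 fold change of each member, CD11c+ minus CD11c-, from the edgeR fit of all 8 libraries (black points, bars are ± SE) and the range over the 8 fits that each left out 1 library (gold). Zeb2, Id2 and Tbx21 sit at 1.42, 0.99 and 0.62 with ranges clear of 0. The range of Prdm1 (0.03 to 0.34) also stays above 0, and those of Eomes, Runx3, Bhlhe40 and Zeb1 cross 0.

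The same-numbered bars of the plot by replicate number show the order of Bhlhe40 against that of Prdm1 and Tbx21. The labels do not say what a number stands for. Within groups (each gene's log2 CPM less its group mean, n = 8 libraries, a description), the 5 tested genes most like Bhlhe40 were Eif5a (r = 0.99), a translation factor, Adrm1 (r = 0.98), a proteasome subunit, Zbed3 (r = 0.98), Mthfd1 (r = 0.97), a folate cycle enzyme, and Vars (r = 0.97), the valine tRNA synthetase. They were picked after the Bhlhe40 pattern was seen. Mthfd1, for example, was at 73.1, 223, 89.1 and 171 CPM in CD11c+ replicates 1 to 4 and at 84.5, 153, 108 and 156 CPM in the CD11c- replicates.

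**Figure D3:**
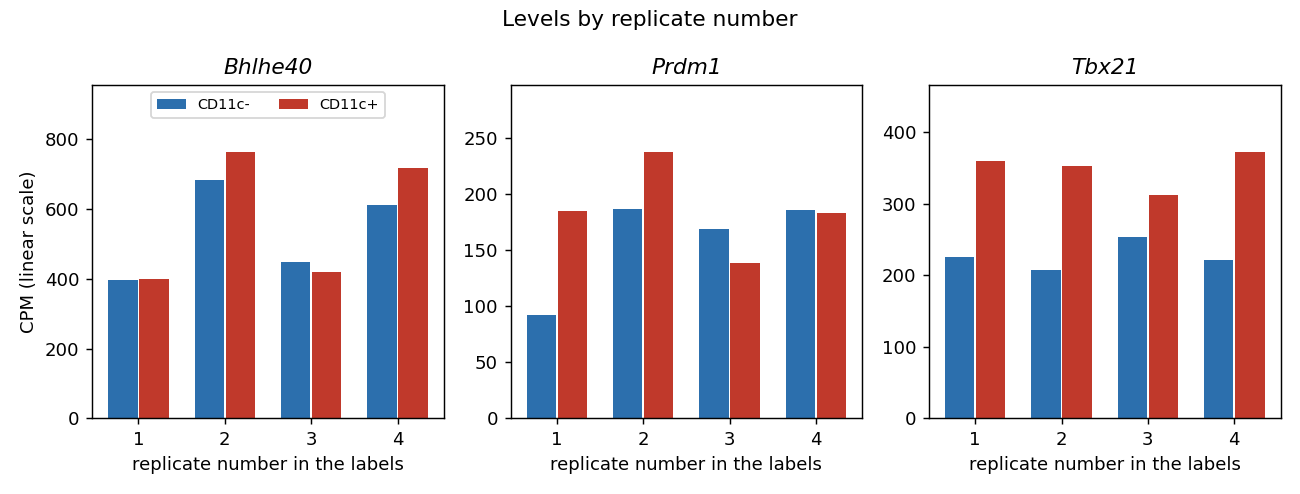
CPM of Bhlhe40, Prdm1 and Tbx21 by the replicate number in the labels (linear axes from 0, 1 bar per library, CD11c- blue, CD11c+ red). Bhlhe40 is high in replicates 2 and 4 of both groups, from 612 to 765 CPM, and low in replicates 1 and 3, from 396 to 448, while Tbx21 is higher in CD11c+ at every number.

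Per kilobase of the longest transcript in GENCODE M21, Id2 was the most abundant member in CD11c+ libraries, at 317 CPM per kb ± 53.9. Bhlhe40 followed at 185 ± 61.7, then Tbx21 at 140 ± 10.6, Runx3 at 64.8 ± 5.82, Eomes at 51.5 ± 9.30, Prdm1 at 35.2 ± 7.71, Zeb2 at 4.79 ± 1.32 and Zeb1 at 2.82 ± 0.818. Among these neighbours Id2 and Bhlhe40, Tbx21 and Runx3, and Prdm1 and Zeb2 did not overlap between libraries, and the other neighbouring pairs did. In CD11c- libraries the order changed at both ends. There Bhlhe40 (172 CPM per kb ± 43.6) and Id2 (160 ± 15.1) overlapped, Tbx21 was at 91.3 ± 7.65, Runx3 at 64.2 ± 5.40, Eomes at 49.7 ± 6.04 and Prdm1 at 30.0 ± 8.51. Zeb1 at 2.91 ± 1.41 and Zeb2 at 1.79 ± 0.519 overlapped too, and the other neighbours did not. The order was the same with the length of all exons joined, but with that length Id2 and Bhlhe40 overlapped in CD11c+ libraries. The lengths are from another build than the counts, for which the submitters' processing notes name mm9.

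Ratios of reads within a library do not depend on how libraries were scaled. The ratio of Tbx21 to Eomes reads was 2.12, 1.96, 1.36 and 2.44 in CD11c+ replicates 1 to 4 and 1.14, 1.11, 1.46 and 1.49 in the CD11c- replicates. The groups overlapped through CD11c+ replicate 3 alone, and the means were 1.97 ± 0.454 and 1.30 ± 0.206, a difference of 0.58 in mean log2 ratio.

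The Zeb2 to Zeb1 ratio was 1.95, 4.62, 2.60 and 2.21 in CD11c+ replicates 1 to 4 and 3.29, 0.876, 0.595 and 0.737 in the CD11c- replicates. In 3 CD11c- libraries Zeb1 had more reads than Zeb2, and in all 4 CD11c+ libraries Zeb2 had more than Zeb1. CD11c- replicate 1 was the exception among the CD11c- libraries, from 102 Zeb2 and 31 Zeb1 reads (95% exact binomial interval of the ratio 2.18 to 5.09, counting error only). The difference in mean log2 ratio was 1.34.

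For Id2 the denominators were Id3 and the E proteins. The Id2 to Id3 ratio was 77.5, 191 and 59.6 in CD11c+ replicates 2 to 4 and 39.5, 25.2, 20.01 and 22.01 in CD11c- replicates 1 to 4. These CD11c+ libraries were all above every CD11c- library. CD11c+ replicate 1 had 0 Id3 reads, so its ratio has no value. A floor of 3 reads, which covers counting error only, would put it at 1141 or more. That library had the fewest detected genes (10482), and whether transcripts of few reads were lost from it was not tested. Id3 itself had 0 to 55 reads in CD11c+ and 46 to 92 in CD11c- libraries. Against the summed E protein genes Tcf3, Tcf4 and Tcf12 the Id2 ratio was 10.2, 2.66, 4.42 and 2.78 in CD11c+ replicates 1 to 4 and 1.93, 1.91, 1.37 and 2.75 in the CD11c- replicates. These overlapped, and the high value of CD11c+ replicate 1 went with 34.02 CPM of Tcf3 there, against 125 to 158 in the other CD11c+ libraries.

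Tbx21 to Tcf7, the gene of the memory factor TCF-1, gave 4.06, 10.7, 5.15 and 9.45 in CD11c+ replicates 1 to 4 and 1.42, 2.74, 1.84 and 3.03 in the CD11c- replicates. The groups did not overlap, and the difference in mean log2 ratio was 1.65, the widest of the ratios that could be computed in all libraries. In the denominator, Tcf7 had a log2 fold change of -1.01 (SE 0.33) by edgeR, overlapped between the groups and was not called. That of Tbx21 was 0.62, so the lower Tcf7 level made up more of this difference than Tbx21 did. In both groups replicates 2 and 4 had the higher Tbx21 to Tcf7 ratios. Prdm1 to Bcl6, the repressor opposed to Blimp-1, overlapped, at 14.4 to 473 in CD11c+ and 32.1 to 74.1 in CD11c- libraries. Its value of 473 in CD11c+ replicate 1 rested on 2 Bcl6 reads (interval 131 to 3911). Id2 to Tbx21 was 1.37 to 2.40 in CD11c+ and 1.22 to 1.56 in CD11c- libraries, also with overlap.

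**Figure D4:**
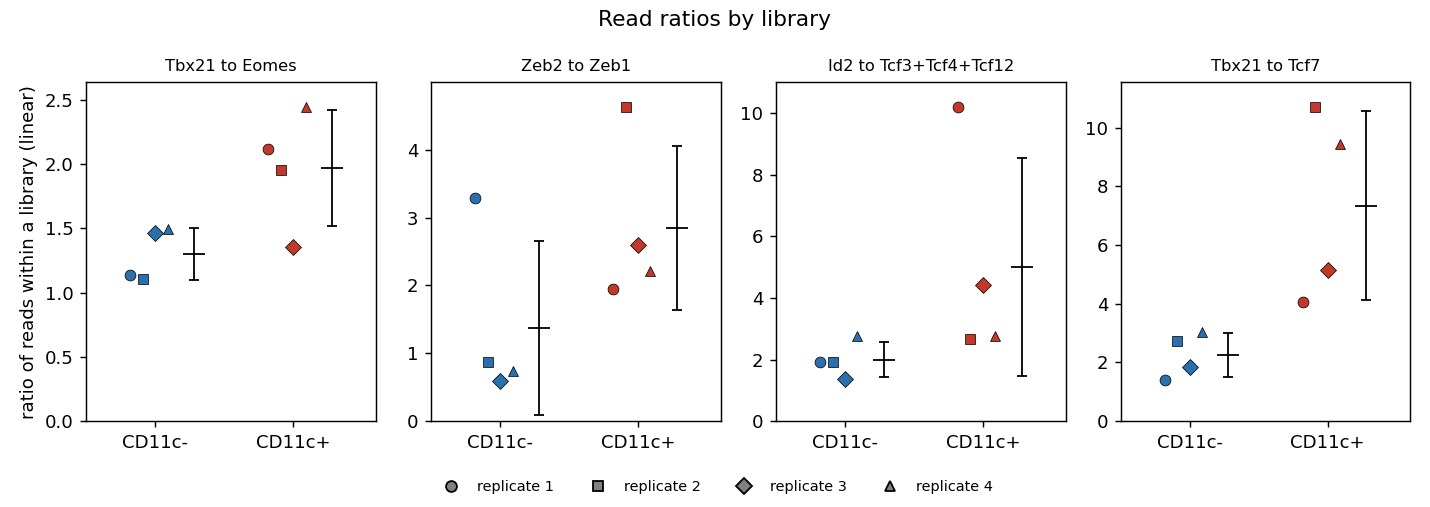
Ratios of raw reads within each library for 4 gene pairs, on linear axes from 0 (CD11c- blue, CD11c+ red, marker shapes give the replicate number, black bars are mean ± SD, n = 4). Tbx21 to Tcf7 separates the groups; Tbx21 to Eomes overlaps through CD11c+ replicate 3 at 1.36 and Zeb2 to Zeb1 through CD11c- replicate 1 at 3.29.

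From library to library within a group, the separated members differed in how they went with each other. With 8 libraries less their group means, r was -0.88 for Tbx21 and Zeb2, 0.18 for Id2 and Zeb2, -0.42 for Id2 and Tbx21 and 0.86 for Id2 and Eomes. For Tbx21 and Zeb2, CD11c+ replicate 3 had the lowest Tbx21 and highest Zeb2 of its group, and CD11c- replicate 3 the reverse. The pair of Id2 and Eomes was picked from all member pairs after their values were seen. Among the others, r was -0.78 for Id2 and Bhlhe40 and 0.71 for Prdm1 and Bhlhe40. These are descriptions over 8 libraries that share scaling to the same totals.

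Genes whose pattern over the 8 libraries was most like a member's were sought among 7505 tested genes with at least 10 CPM on average, by Pearson r of log2(CPM + 1). For Id2 they were Iqgap2 (r = 0.98), Ppig (0.98), Mki67 (0.97), the gene of the cycling-cell antigen Ki-67, Klrd1 (0.96), which encodes the NK receptor chain CD94, and Ccdc41 (0.95). With group means removed, r was 0.97 for Mki67, 0.93 for Iqgap2, 0.89 for Klrd1, 0.79 for Ppig and 0.76 for Ccdc41. These genes, and those for Tbx21 and Zeb2 below, were picked by r over these same libraries. High values thus follow in part from the choice, and none was tested. Mki67 ranked the 8 libraries in the same order as Id2, at 576, 499, 640 and 478 CPM in CD11c+ replicates 1 to 4 and 432, 406, 418 and 381 in the CD11c- replicates.

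For Tbx21 the most alike were Gtdc1 (r = 0.95), Itgax (0.94), Zmiz1 (0.94), Serpinb9 (0.94), the inhibitor of granzyme B, and Ccna2 (0.94), which encodes cyclin A2. With group means removed these r were 0.36, 0.23, 0.16, 0.49 and 0.56, so the likeness lay mainly between the groups. For Zeb2 they were Cdk11b (0.94), Pola1 (0.93), a DNA polymerase subunit, Fam129b (0.92), Cbwd1 (0.92) and Plod1 (0.91), and 0.74, 0.69, 0.70, 0.65 and 0.66 with group means removed.

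The partners and targets of the members were taken as 9 lists, written with earlier results of these data known. Of their 118 genes, all were in the files, 100 were tested and 2 passed an adjusted p of 0.05 by edgeR, both lower in CD11c+. Median log2 fold changes are set beside that of all tested genes, which was 0.01, with 51.7% of genes positive and 4.70% under 0.05 before adjustment. Counts before adjustment below use the same 0.05.

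The transcripts of the E proteins that Id2 pairs with, and of the other Id proteins, gave no call. Of 4 tested Id and E protein genes 0 passed by edgeR (likewise 0 by DESeq2 and limma voom, and 0 before adjustment), with 1 positive and 3 negative values and a median of -0.59, which was -0.24 without CD11c+ replicate 1 and -0.96 without CD11c+ replicate 2. Tcf3, the source of E2A, averaged 116 CPM ± 56.1 in CD11c+ and 129 ± 42.8 in CD11c- libraries. Tcf12, which encodes HEB, was at 41.1 ± 8.57 and 38.2 ± 14.7, and Id3 at 4.96 ± 3.85 and 12.5 ± 3.20. Log2 fold changes of Tcf3, Tcf12 and Id3 were -0.16, 0.11 and -1.33. Tcf4 was at 1.48 ± 1.98 and 3.05 ± 0.197 (-1.03, SE 1.12), from 0 to 24 reads per library. The median thus lay between Tcf3 and the sparse Tcf4, and it does not describe the E protein genes with more reads.

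Among 6 tested genes tied to E protein activity in lymphocytes, Cxcr5 fell. This receptor for the follicle chemokine CXCL13 averaged 28.1 CPM ± 12.5 in CD11c+ and 124 ± 32.8 in CD11c- libraries, a log2 fold change of -2.14 (SE 0.30, adjusted p = 0.023 by edgeR). With CD11c+ replicate 2 or CD11c- replicate 2 left out it still passed, and with any other single library left out it did not, at log2 fold changes of -2.49 to -1.96 and adjusted p of 0.00377 to 0.132 by edgeR. Socs3, a feedback inhibitor of cytokine signalling, was at 30.1 ± 3.21 and 44.6 ± 5.12 (-0.57), Socs1 at 36.9 ± 4.46 and 31.3 ± 1.82 (0.24), and Foxo1 at 35.4 ± 16.0 and 31.7 ± 7.30 (0.16). The median of the list was -0.21, with 3 positive and 3 negative values. It ran from -0.50 (without CD11c- replicate 1) to -0.01 (without CD11c+ replicate 3) with 1 library left out, and was also over 1.5 times apart from -0.21 without CD11c+ replicate 1 or CD11c- replicate 2 or 4.

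Of 15 tested T-bet targets 12 had positive and 3 negative log2 fold changes. By edgeR 0 passed over all genes, with adjusted p from 0.0637 (Gzmb), while 9 passed before adjustment, 8 higher and Il2rb lower, and DESeq2 called 3 and limma voom 1. The median log2 fold change was 0.75, and 0.46 without CD11c+ replicate 2. Gzmb, the granule protease granzyme B, was at 1908 CPM ± 389 and 1064 ± 151 with no overlap, a log2 fold change of 0.84. Gzmb did pass in edgeR with no filter (adjusted p = 0.0154), with at least 5 CPM in 4 libraries (0.0443) and with legacy=FALSE (0.0188), and its adjusted p was 0.059 to 0.314 with 1 library left out. The chemokine gene Ccl5 was at 5584 ± 1368 and 6510 ± 948 (-0.22) and Il2rb, the IL-2 and IL-15 receptor chain, at 1532 ± 189 and 1902 ± 194 (-0.31). Both overlapped between the groups and did not pass. Besides Gzmb, 3 further targets lay above in every CD11c+ library and were picked after their values were seen: Il12rb2 (7.38 ± 3.68 and 1.24 ± 0.828), Il18rap (53.5 ± 11.9 and 29.9 ± 8.25) and Xcl1 (56.4 ± 13.5 and 26.7 ± 7.61), which encode 2 cytokine receptor chains and a chemokine.

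Cytokine inputs to T-bet and Blimp-1 gave no call. Of 16 tested, 0 passed by edgeR (likewise 0 by DESeq2 and limma voom, and 0 before adjustment), 8 were positive and 8 negative, and the median was 0.00 (-0.06 to 0.02 with 1 library left out). Il2rg, the common receptor chain, was at 1726 CPM ± 54.2 and 1677 ± 83.4, Jak1 at 860 ± 144 and 1043 ± 171, and Ifngr1 at 858 ± 64.4 and 905 ± 94.6.

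Zeb partners and TGF-beta inputs gave 0 calls among 10 tested (likewise 0 by DESeq2 and limma voom, and 0 before adjustment), with 3 positive and 7 negative values and a median of -0.15. That median was -0.32 without CD11c+ replicate 3, -0.29 without CD11c- replicate 4, and nearer to 0 without CD11c+ replicate 1 or 2 or CD11c- replicate 1 or 3, up to -0.01 in the last case. Tgfbr2, the TGF-beta receptor chain, was at 383 CPM ± 26.0 and 412 ± 50.8, and the signal carriers Smad3 at 280 ± 48.1 and 278 ± 59.8 and Smad2 at 77.7 ± 28.6 and 69.95 ± 9.83.

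Of 16 tested memory and precursor genes 2 fell by edgeR, Cxcr5 among them, and 0 rose. The median log2 fold change was -0.29, with 5 positive and 11 negative values. The costimulatory receptor gene Cd27 was at 463 CPM ± 42.0 and 572 ± 95.3 (-0.30), S1pr1, the receptor for exit from tissue, at 340 ± 49.7 and 403 ± 56.3 (-0.24), and the survival gene Bcl2 at 101 ± 19.7 and 124 ± 37.2 (-0.29). Of its genes Foxo1, Cxcr5, Il7r and Ccr7 are also in the list tied to E protein activity, and Id3 is in that of Id and E proteins.

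For Runx3, of 6 tested Runx and core-binding factor partners 0 passed by edgeR (0 by DESeq2 and limma voom, and 1 before adjustment), with a median of 0.25, and 0.40 without CD11c- replicate 1. The paralogs Runx1 and Runx2 were at 80.0 CPM ± 10.3 and 80.3 ± 10.3 in CD11c+ and at 69.96 ± 4.28 and 65.0 ± 11.7 in CD11c- libraries, and the corepressor gene Tle3 at 145 ± 26.2 and 148 ± 6.88.

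Of 10 tested genes of the tissue residency programme that Hobit and Blimp-1 are tied to, 0 passed by edgeR (DESeq2 called 1 and limma voom 0, and 3 passed before adjustment), 5 were positive and 5 negative, and the median was 0.09. It ran from -0.03 (without CD11c- replicate 4) to 0.31 (without CD11c- replicate 1), and was 0.14 to 0.20 without CD11c+ replicate 3 or 4 or CD11c- replicate 2. Cxcr6, a receptor of liver-resident T cells, was at 243 CPM ± 46.9 and 182 ± 41.6, Rgs1 at 138 ± 28.01 and 117 ± 29.4, and Cd69 at 105 ± 39.4 and 109 ± 24.9. The list holds S1pr5 and Xcl1, which the T-bet targets hold too. Its genes were not split by the direction they take in this programme, so the signs and the median do not measure residency.

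Other CD8 T cell transcription factors numbered 24 tested, of which 0 passed by edgeR (DESeq2 and limma voom called 1 each, and 5 passed before adjustment), with 15 positive and 9 negative values and a median of 0.03 (-0.05 to 0.11 with 1 library left out). Ets1 was at 769 CPM ± 31.1 and 984 ± 165 (-0.36) with no overlap, Ikzf1, which encodes Ikaros, at 704 ± 76.8 and 761 ± 70.9 (-0.11), and Hif1a at 497 ± 69.98 and 473 ± 68.8 (0.07). Tox2, picked after its values were seen as the one that DESeq2 and limma voom called, was at 26.5 ± 9.25 and 63.5 ± 10.9, with a log2 fold change of -1.26.

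Id2 and Zeb2 are also made by dendritic cells, macrophages and NK cells, so markers of those cells stand beside them here. The gate removed MHCII+ and NK1.1+ cells by surface stain. Summed CPM of 8 dendritic cell markers was 4.69 to 14.6 in CD11c+ and 0 to 8.68 in CD11c- libraries. For 13 monocyte and Kupffer cell markers it was 93.9 to 371 and 94.7 to 201, led by Lyz2, and for 6 NK and ILC1 markers 11.5 to 80.4 and 6.31 to 37.2, led by Tyrobp and with Klra8 and Klra4 at 0 in all 8 libraries. Neutrophil markers, 5 in number and with Mpo at 0 throughout, summed to 2.27 to 281 and 7.003 to 110. B cell markers (5) summed to 9.58 to 13.6 and 6.58 to 14.8, hepatocyte markers (7) to 0.196 to 25.9 and 1.86 to 38.2, and endothelial and stellate markers (8, with Lyve1 and Lrat at 0) to 17.8 to 28.1 and 24.7 to 39.4.

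No sum passed an exact permutation test for these 7 lists (two-sided, 4 against 4 libraries). Unadjusted p of this test ran from 0.143 to 0.8286 and adjusted p from 0.6 to 0.8286, with 0.0286 the smallest unadjusted p possible. A single list at that smallest p would still not pass once adjusted over the 7 lists. The test thus cannot decide whether the sum of any single list differed, and no likeness of the groups is read from it. CD11c+ replicate 3 was the highest library for the dendritic cell, monocyte, neutrophil and NK lists. It was also the highest for Id2, Zeb2, Eomes and, narrowly, Runx3 (278 CPM, against 275 in CD11c- replicate 3). Its NK sum came mainly from Tyrobp at 55.2 CPM and Fcer1g at 22.6, with Ncr1 at 1.78 and Klrb1c at 0.713. Tyrobp, Fcer1g and Ncr1 were each highest in CD11c+ replicate 3. Klrb1c was highest in CD11c+ replicate 1, at 8.99 CPM. Without CD11c+ replicate 3 the log2 fold change of Id2 was 0.88 and that of Zeb2 1.245. CD11c+ replicate 2, with the lowest monocyte sum of all 8 libraries, had 49.2 CPM of Zeb2, more than any CD11c- library. Among CD11c- libraries, replicate 3 had the highest monocyte and NK sums and the lowest Zeb2. Its NK sum, too, came mainly from Tyrobp (18.1 CPM) and Fcer1g (17.1). These are single libraries named after their values were seen. What part other cell types had in the Id2 and Zeb2 levels was not tested.

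**Figure D5:**
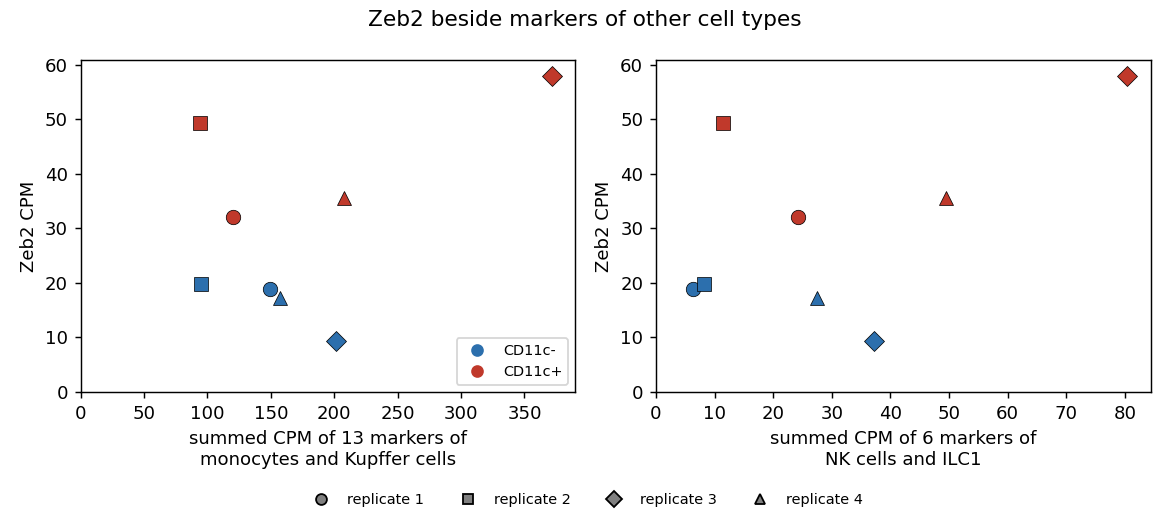
Zeb2 CPM (y axis) against the summed CPM of 13 monocyte and Kupffer cell markers (left) and 6 NK and ILC1 markers (right), 1 point per library, on linear axes from 0 (CD11c- blue, CD11c+ red, marker shapes give the replicate number). CD11c+ replicate 3 is at the top right of both panels, at 371 and 80.4 CPM of markers; the other CD11c+ libraries have 32.1 to 49.2 CPM of Zeb2, and the CD11c- libraries 9.41 to 19.7. The 80.4 CPM came mainly from Tyrobp (55.2) and Fcer1g (22.6).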

How the data were processed

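Poly(A) RNA of 8 sorted samples was amplified with a modified SMART-seq2 protocol and made into libraries with Nextera XT, per the labels' protocols. The authors deposited raw read counts per gene, 1 file per library. Tools named in the submitters' processing notes are bcl2fastq, TopHat2 2.0.8b and HTSeq, with build mm9, annotation and strand setting not given in the sources used here. Of uniquely placed reads 65.1% fell in no gene, and the 5 summary entries were left out. Library pairs of a group differed beyond read sampling (lowest chi-square per degree of freedom 9.43).

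R 4.3.3 and edgeR 4.0.16 were used for the counts (quasi-likelihood test, filterByExpr, TMM, Benjamini-Hochberg over 10073 genes, threshold 0.05); SE is the log2 fold change over the root of F. Fits were tested on simulated data. Alternatives were other scalings and filters, DESeq2 1.42.0, limma voom 3.58.1, legacy=FALSE, a replicate block and libraries left out. Of the called genes, 1 is not reported here. Members and lists were chosen with earlier results of these data known. By rule, the text names all members, per list every called gene and the 3 further genes of highest CPM, and for Id2, Tbx21 and Zeb2 the 5 genes most like each. Marker sums were compared by exact permutation tests. Promoters are from RefSeq GRCm38.p6 and transcript lengths from GENCODE M21; no mm9 coordinates were used.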

Additional observations from a re-analysis of the deposited data

Results flagged for a closer look

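In 44 groups of 4 libraries (members, ratios and marker sums), the highest or lowest library was set against the other 3. For independent, normally distributed values this comparison picks out about 1 group in 20. Ratios and sums on a linear scale can be skewed, and the groups share genes and libraries, so that rate need not hold here. The comparison picked out 3. The Zeb2 to Zeb1 ratio was 3.29 in CD11c- replicate 1 and 0.595 to 0.876 in the other CD11c- libraries. The Prdm1 to Bcl6 ratio was 473 in CD11c+ replicate 1, from 2 Bcl6 reads, and 14.4 to 41.3 in the other CD11c+ libraries. The summed neutrophil markers were at 281 CPM in CD11c+ replicate 3 and 2.27 to 43.0 in the other CD11c+ libraries. Their part in the member levels was not tested.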

How the results depend on the processing

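Counts of calls moved with the method. Genes called numbered 5 in the fit as reported, 12 with no filter, 8 with at least 5 CPM in 4 libraries, 11 with legacy=FALSE, 36 by DESeq2, 19 by limma voom, 11 when the 3 libraries in which fewest genes were detected were left out, and 1 to 5 with 1 library left out. Members called numbered 1, and 3 by DESeq2, 2 by limma voom and 0 to 1 with 1 library left out. Genes of the lists called numbered 2, and 3 with no filter, at least 5 CPM in 4 libraries, legacy=FALSE or the replicate block, 6 by DESeq2, 4 by limma voom, 1 without those 3 libraries and 0 to 2 with 1 library left out. Id2, Tbx21 and Zeb2 stayed positive in every alternative run, with log2 fold changes of 0.88 to 1.06, 0.57 to 0.67 and 1.21 to 1.57, and no called value changed sign. With the replicate number as a block 13 genes were called, Id2 still the 1 member among them, Gzmb gained its call (adjusted p = 0.00562, SE 0.0755 against 0.14), the Id and E protein median was -1.06, and the SE of Bhlhe40 was 0.087 (log2 fold change 0.08) against 0.23 without the block. List medians, those within 0.05 of 0 aside, moved by over 1.5 times in other settings too: T-bet targets 0.43 without those 3 libraries, Id and E proteins -0.17 with no filter and -0.16 by DESeq2 or with at least 5 CPM, genes tied to E protein activity -0.37 by DESeq2, -0.38 with no filter and -0.53 without the 3 libraries, Zeb partners 0.15, Runx partners 0.38 (and 0.16 by limma voom) and residency genes 0.37 without the 3 libraries, and residency genes 0.23 with at least 5 CPM and 0.19 by limma voom. Same-numbered libraries correlated at 0.0792 to 0.192 after group means were removed, and all 8 libraries matched their own number best, which is a hint from the data and not from the design. The planned Zfp683 to Prdm1 ratio was not run, and the Id2 to Id3 difference has no value because 1 library had 0 Id3 reads. Depth limits Zeb1 and Zeb2 most, at 31 to 161 and 50 to 325 reads per library.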
